A study of Arabidopsis thaliana with 12 samples.

Results

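The 56 loci described here are the named loci with the highest mean signal on 12 arrays of Arabidopsis thaliana RNA. For each of the 691 loci with a probe assigned to 1 gene, the deposited intensity was averaged over all 12 arrays, and the 60 highest were taken. Of these, 4 are not reported here, which left 56. The intensities of both groups together chose these loci, so their levels and their order are a description and carry no test. The intensity of a probe depends on the probe as well as on the amount of transcript. The order is therefore an order of signal and does not show that these transcripts are the most abundant. The 56 loci held places from 1 to 289 among all 3438 features, and 229 other features in that range had no single named gene.

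All plants were wild type, ecotype Columbia 0. On 6 arrays, called the staurosporine group, the plants had received water for 4 h and then staurosporine for 4 h. On the other 6 arrays, called the ascorbate group, 2 µM staurosporine had come first (4 h) and 25 mM ascorbate second (again 4 h). The labels give pH 5.5 for the second treatment of each group. For the staurosporine group the label reads 25 mM staurosporine, the same figure as the ascorbate dose, so whether the dose of staurosporine differed between the groups is not known here. Staurosporine was given to both groups, early in one and late in the other, and its timing cannot be told apart from the presence of ascorbate. The labels name no tissue, age or growth condition, and none says whether different plants stand behind the arrays of one group, so the spread between arrays may be technical.

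Staurosporine is a microbial alkaloid that inhibits protein kinases of many families by occupying their ATP-binding site. Ascorbate is a major soluble antioxidant of plant cells, and in chloroplasts it is the electron donor with which ascorbate peroxidases remove hydrogen peroxide. Light, kinases and the redox state of the chloroplast are all known to act on the expression of nuclear genes for chloroplast proteins. The design sets ascorbate given after staurosporine against staurosporine given last. The brightest loci are those whose signal lay farthest above the dim end of the scale.

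The deposited scale of relative intensity had its lower end at 0 and its upper end at 100, and none of the 56 loci was at 0 on any array. Array medians ranged from 0.169 to 0.486 over all features. Of the green-tissue markers among the named loci, LHB1B2, PSAN, PSBY and PRK were above 0 on all 12 arrays, while for SBPASE every array listed 0. Arrays with consecutive numbers (1 and 2, 3 and 4, 5 and 6) resembled each other within each group, with Spearman correlations of 0.8895 to 0.9825 over all features, against at most 0.8858 to 0.9065 with arrays of other pairs. Arrays 3 and 4 were hardly closer to each other than to other arrays (0.9173 against 0.9065 with staurosporine, 0.8895 against 0.8888 with ascorbate). Consecutive arrays were averaged throughout, and each value below is either a group's mean ± SD over its 3 pair averages, or those 3 averages in the order of the array numbers. Log2 changes are ascorbate minus staurosporine. They come, unless stated otherwise, from quantile-normalized values, a scaling that gives every array the same distribution, and were tested with limma over all 3438 features with Benjamini-Hochberg adjustment and a threshold of 0.05.

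With ascorbate 1 of the 56 loci passed the test as lower, and 0 passed as higher. The background over all features was 0.64% lower and 0.902% higher. For the 229 other features in the same range of places the shares were 1.31% lower and 3.06% higher. AT3G06200 was the locus that passed. It read 7.24, 5.84 and 4.56 in the staurosporine pairs and 1.49, 1.45 and 1.18 in the ascorbate pairs. The 2 groups did not overlap on any array, since the lowest staurosporine array read 4.49 and the highest ascorbate array 1.56. AT3G06200 fell by 1.93 on the log2 scale (SE 0.25, limma adjusted p = 0.0474), and the change was −2.33, −1.67 and −1.80 in the 3 pairs of array numbers. With the pair of numbers as a block its limma adjusted p was 0.196 and no locus of the 56 passed, and on the deposited scale it was 0.148, again with no locus passing. In each of these fits 0.0291% of all features passed, 1 feature that was higher. The call also ended when any pair average, or any one of staurosporine arrays 3, 4 and 6 and ascorbate arrays 1 and 3, was left out (log2 change −2.08 to −1.73, limma adjusted p from 0.043 to 0.261 over all 21 such fits). In bulk RNA, fewer cells of a type and less RNA per cell cannot be told apart. At an unadjusted p under 0.05, limma placed 7 of the 56 higher and 10 lower, and 5 and 8 with the block. Over all features those shares were 12% and 12.6%, and 10.4% and 10.3% with the block.

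When each of the 12 arrays was taken as a sample, limma called 9 of the 56 higher (16.1%) and 14 lower (25.0%). The background in that fit was 13.9% higher and 14.1% lower. Of the 229 other features of the same brightness, the same fit called 22.7% higher and 24.0% lower. The share of the 56 called lower was thus near that of these features. That fit treats consecutive arrays as independent. On normalized values the 6 arrays of one group did not overlap with the 6 of the other for 6 loci that were higher with ascorbate (10.7%, background 8.55%) and for 10 that were lower (17.9%, background 8.46%). The 6 were AT3G52070, AT4G09620, XERICO, AT2G38550, AT4G24930 and AT5G55570. The 10 were AT3G06200, AT4G29890, AT5G38310, AT4G08940, AT5G40030, AT1G06730, AT4G25290, AT4G22830, AT4G18180 and AT1G73120. Among the 229 other features of the same brightness the shares without overlap on normalized values were 15.7% higher and 16.6% lower.

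**Figure D1:**
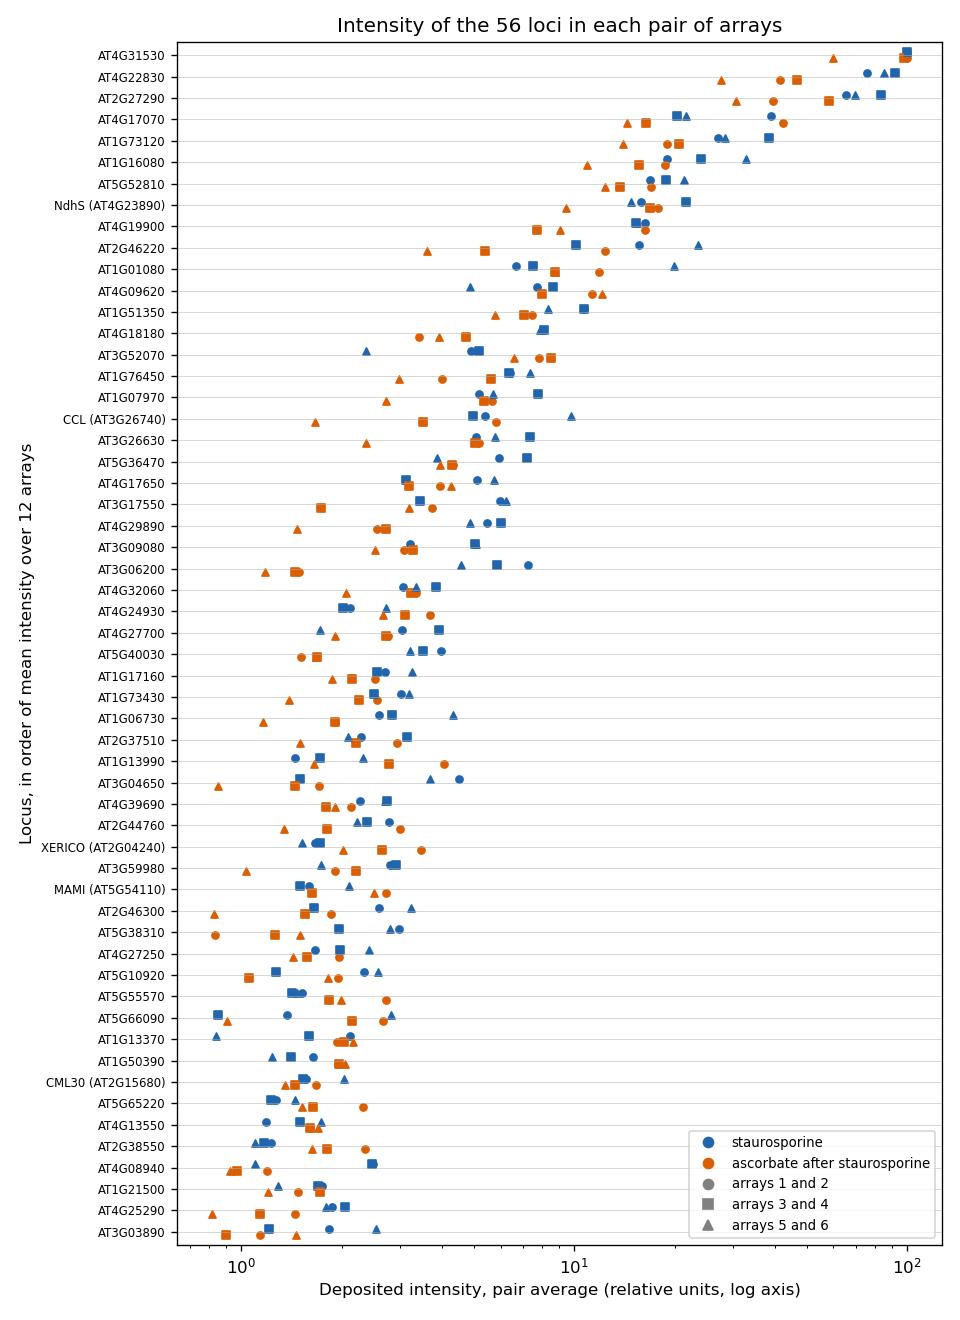
Deposited intensity (relative units, log axis) of the 56 loci, 1 row per locus in order of mean intensity, with 3 pair averages per group. Blue is staurosporine, orange is ascorbate after staurosporine, and circles, squares and triangles are arrays 1 and 2, 3 and 4, and 5 and 6. AT3G06200 shows the widest gap between the groups, at 5.88 ± 1.34 and 1.37 ± 0.167.

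The signal was unevenly spread over the 56 loci. In the staurosporine group 11 loci had a mean above 10, 31 lay between 2 and 10, and 14 were at or under 2. In the ascorbate group these counts were 10, 26 and 20. The 3 brightest loci, AT4G31530, AT4G22830 and AT2G27290, held 43.6%, 47.1% and 43.5% of the summed signal of the 56 in the staurosporine pairs, and 38.1%, 47.1% and 38.8% in the ascorbate pairs. AT4G31530 was at the upper end of the scale on all staurosporine arrays and on ascorbate arrays 1, 2 and 4. The shares that use those arrays are therefore lower bounds. The median of the group means over the 56 loci was 3.24 with staurosporine against 2.37 with ascorbate.

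AT4G31530 headed the order in every pair of both groups. It read 100, the upper end of the scale, on all 6 staurosporine arrays, so its level there has only a lower bound. In the ascorbate pairs it read 100, 98.0 and 59.8, and only arrays 5 and 6 lay far below the limit. No change or test is given for it, since the staurosporine values are capped.

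AT4G22830, second with staurosporine, read 75.5, 91.7 and 85.2 in the staurosporine pairs and 41.4, 46.6 and 27.6 in the ascorbate pairs. No ascorbate array reached any staurosporine array. Its place among the named loci went from 2 to 4. The log2 change was −0.83 ± 0.12 (SE) and did not pass (limma adjusted p = 0.054), while on the deposited scale it was −1.16 (limma adjusted p = 0.151). AT2G27290 stayed in place 3, at 73.0 ± 9.45 and 42.8 ± 14 (SD, n = 3 pair averages). Its arrays did not overlap on the deposited scale, but did after normalization (log2 change −0.35 ± 0.19 SE, limma adjusted p = 0.324).

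Below these, 7 loci completed the 10 brightest, and their intensities overlapped between the groups except for AT1G73120. AT1G73120 read 26.9, 38.3 and 28.3 with staurosporine against 18.9, 20.7 and 14 with ascorbate (log2 change −0.34 ± 0.09 SE, limma adjusted p = 0.123). AT1G16080 read 25.2 ± 6.93 and 15.1 ± 3.93, and AT5G52810 read 19.0 ± 2.25 and 14.4 ± 2.40. AT2G46220 read 15.6, 10.1 and 23.6 with staurosporine against 12.4, 5.40 and 3.60 with ascorbate, so most of its difference lay in arrays 5 and 6. AT4G17070 read 27.0 ± 10.4 and 24.4 ± 15.6, a difference smaller than either SD. AT4G19900 read 16.3, 15.3 and 15.4 with staurosporine against 16.3, 7.73 and 9.06 with ascorbate, so its pair averages overlapped through ascorbate arrays 1 and 2. On single arrays, staurosporine array 4 (8.67) also lay below every ascorbate array except array 4. None of these 6 loci passed, with limma adjusted p-values of 0.123 to 0.943.

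Of the 56 loci, 5 carry a gene name in the annotation, and the other 51 are listed by locus tag alone, so no function is given for them here. All 56 are annotated as protein coding. The brightest of the named ones was NdhS (AT4G23890, also called CRR31), a subunit of the chloroplast NADH dehydrogenase-like complex, which passes electrons from ferredoxin to plastoquinone in cyclic electron flow around photosystem I. NdhS read 15.9, 21.6 and 14.8 with staurosporine against 17.8, 16.9 and 9.45 with ascorbate, and its place was 9 and then 8. The groups overlapped (log2 change 0.20 ± 0.18 SE, limma adjusted p = 0.554), and on the deposited scale the change was −0.28. NdhN, another subunit of that complex and the only other named locus in its class, was listed at 0 on 9 of 12 arrays.

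CCL (AT3G26740), whose name stands for CCR-like, is known for a short-lived messenger RNA under control of the circadian clock. It read 5.39, 4.97 and 9.75 with staurosporine against 5.80, 3.5 and 1.66 with ascorbate. The pairs thus disagreed, with normalized changes of 0.19, −0.05 and −2.16, and the fit gave −0.68 ± 0.52 (SE, limma adjusted p = 0.482). XERICO (AT2G04240) encodes a RING-H2 protein linked to abscisic acid accumulation and drought tolerance. It read 1.66, 1.72 and 1.52 with staurosporine against 3.46, 2.64 and 2.01 with ascorbate, and no arrays of the groups overlapped. Its place went from 59 to 28, and its log2 change of 0.83 ± 0.15 (SE) did not pass (limma adjusted p = 0.074).

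MAMI (AT5G54110) is annotated as a membrane-associated, mannitol-induced protein. It read 1.60, 1.5 and 2.11 with staurosporine against 2.71, 1.63 and 2.50 with ascorbate (log2 change 0.58 ± 0.29 SE, limma adjusted p = 0.290), and its place went from 53 to 31. CML30 (AT2G15680), a calmodulin-like protein of the family of calcium sensors, read 1.71 ± 0.283 and 1.49 ± 0.164 and held places 56 and 55 (log2 change −0.13 ± 0.14 SE, limma adjusted p = 0.610). Its relative CML41, outside the 56, read 1.07 ± 0.192 and 1.17 ± 0.237. Of the classes formed by words in the annotation, electron transport with NDH and kinases with signalling held 1 of the 56 loci each. The classes of photosystem subunits, carbon fixation, chaperones and proteases, antioxidants, amino acids and lipids held 0 of the 56, but each held only 1 to 7 of the 691 named loci. No class was matched by 54 of the 56, nor by 662 of the 691.

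**Figure D2:**
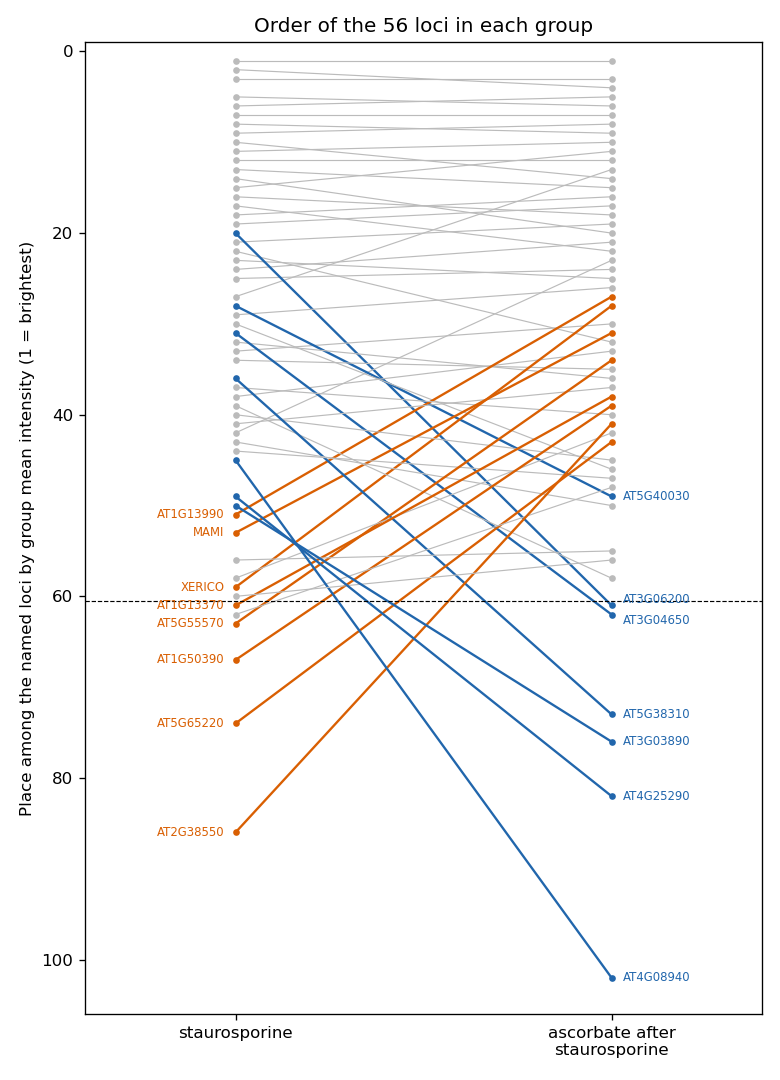
Place of each of the 56 loci among the 691 named loci (1 = brightest) by the mean intensity of each group, with 1 line per locus. Orange lines gained and blue lines lost more than 20 places with ascorbate, and the dashed line marks the limit of the 60 brightest. The upper lines run nearly level, while AT4G08940 moved from 45 to 102 and AT2G38550 from 86 to 41.

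The top of the order was alike in both groups. Of the 10 brightest of the 56 loci with staurosporine, 9 were among the 10 brightest with ascorbate, and of the first 20, 18 were shared. Over the 56 loci, 32 lay within 5 places of their staurosporine place among all named loci, 12 gained more than 5 places and 12 lost more than 5. Of the 20 brightest, 18 stayed within 5 places, against 14 of the other 36. Signals lie closer together lower in the order.

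The order varied less between pairs of 1 group than between groups. Across the 56 loci, Spearman correlations of intensity were 0.835 to 0.935 between pairs of the same group and 0.654 to 0.832 between pairs of different groups. These are correlations across loci that share their arrays and probes, and they are given as a description. Between the 2 group means the correlation was 0.770. When the 60 brightest named loci were taken in each group alone, 46 were shared (76.7% of each list). Of the 56 loci, 44 were in both lists, 6 only in that of staurosporine and 6 only in that of ascorbate. Since the 56 were chosen on the mean of both groups, loci bright in 1 group alone could enter only if that group was bright enough.

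The loci that lost most places were AT4G08940 (57 places), AT3G06200 (41), AT5G38310 (37), AT4G25290 (33) and AT3G04650 (31). AT4G08940 read 2.48, 2.46 and 1.10 with staurosporine against 1.19, 0.969 and 0.926 with ascorbate. Its staurosporine value in arrays 5 and 6 was within the range of the ascorbate arrays, and after normalization the groups did not overlap (log2 change −0.97 ± 0.35 SE, limma adjusted p = 0.190). AT5G38310 read 2.97, 1.96 and 2.80 and then 0.835, 1.26 and 1.49, with no overlap between the groups (log2 change −1.07 ± 0.37 SE, limma adjusted p = 0.175). AT4G25290 read 1.90 ± 0.125 and 1.13 ± 0.316, also without overlap (log2 change −0.84 ± 0.30 SE, limma adjusted p = 0.186). For AT3G04650 the staurosporine pairs themselves spread from 1.5 to 4.50, and the ascorbate pairs from 0.848 to 1.71 (log2 change −1.21 ± 0.49 SE, limma adjusted p = 0.220).

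The loci AT4G29890 and AT5G40030 were also lower with ascorbate in all 3 pairs of array numbers. AT4G29890 read 5.47, 6.01 and 4.87 with staurosporine against 2.56, 2.71 and 1.47 with ascorbate, and its log2 change was −1.11 ± 0.27 (SE, limma adjusted p = 0.114). AT5G40030 read 3.99, 3.51 and 3.20 and then 1.51, 1.68 and 1.68 (log2 change −0.91 ± 0.19 SE, limma adjusted p = 0.086). In both, no array of one group reached the other. AT4G18180 likewise did not overlap, at 8.01 ± 0.136 and 4.02 ± 0.654 (log2 change −0.70 ± 0.26 SE, limma adjusted p = 0.198). AT4G29890 was among the 29 loci named by rule. Beyond those 29, AT5G40030, AT4G18180 and the other loci given by value were chosen after their values were seen.

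The loci that gained most places were AT2G38550 (45 places), XERICO (31), AT5G65220 (31), AT5G55570 (29) and AT1G50390 (28). AT2G38550 read 1.22, 1.17 and 1.10 with staurosporine against 2.34, 1.81 and 1.63 with ascorbate, a tight staurosporine group that no ascorbate array reached. Its log2 change was 0.73 ± 0.14 (SE, limma adjusted p = 0.075). AT5G55570 read 1.47 ± 0.0467 and 2.18 ± 0.473, again without overlap (log2 change 0.68 ± 0.14 SE, limma adjusted p = 0.087). AT5G65220 read 1.32 ± 0.116 and 1.82 ± 0.428, and AT1G50390 read 1.43 ± 0.200 and 1.99 ± 0.0499. Both overlapped between the groups, with log2 changes of 0.49 ± 0.16 and 0.61 ± 0.20 (SE, limma adjusted p = 0.153 and 0.156).

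The largest log2 change upward among the 56 was that of AT3G52070, at 1.37 ± 0.36 (SE, limma adjusted p = 0.120). It read 4.89, 5.16 and 2.37 with staurosporine against 7.81, 8.53 and 6.60 with ascorbate, and every ascorbate array was above every staurosporine array. Its place went from 27 to 13. AT4G24930 read 2.12, 2.02 and 2.71 and then 3.69, 3.09 and 2.67. The deposited values overlapped in arrays 5 and 6, but after normalization the groups did not overlap, and the changes in the 3 pairs were 0.75, 0.68 and 0.73 (log2 change 0.72 ± 0.11 SE, limma adjusted p = 0.061). AT4G09620 read 7.73, 8.61 and 4.85 and then 11.3, 8.02 and 12.1 (log2 change 0.90 ± 0.39 SE, limma adjusted p = 0.242). AT1G13990 read 1.44, 1.72 and 2.32 and then 4.07, 2.78 and 1.66, so its direction turned in arrays 5 and 6. After normalization its changes in the 3 pairs were 1.55, 0.68 and −0.062 (log2 change 0.72 ± 0.33 SE, limma adjusted p = 0.266).

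**Figure D3:**
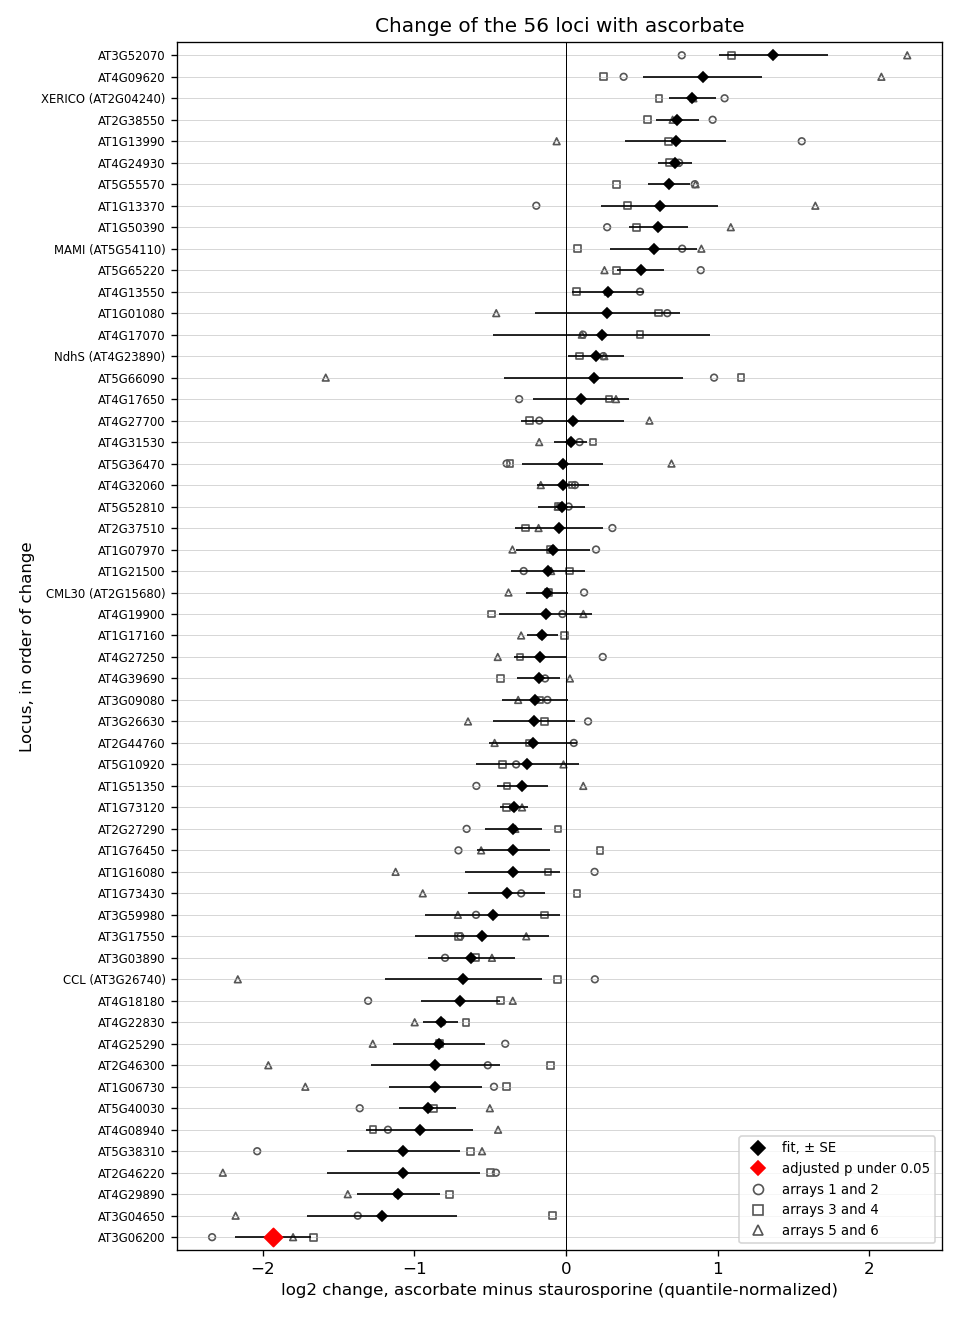
Log2 change of the 56 loci, ascorbate minus staurosporine, from quantile-normalized values. Diamonds are the fitted change with its SE over 3 pair averages per group, open symbols the change in each pair of array numbers, and the red diamond is AT3G06200 (−1.93). The open symbols scatter widely around many diamonds, for example from −2.16 to 0.19 for CCL. The position of AT4G31530 is set by the upper end of the scale and shows no direction.

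The median change of the 56 loci lay below that of all features on both scales, and its size depended on the scale. On the deposited scale the median log2 change of the 56 was −0.40, while that of all 3438 features was 0.72, and 43 of the 56 changes were below 0. After quantile normalization the median of the 56 was −0.16 against 0.00 for all features, and 37 of the 56 were below 0. Without arrays 5 and 6 of both groups that median was −0.10. For the 631 named loci ranked after the 60 brightest the medians were 1.01 on the deposited scale and 0.07 after normalization. The 229 other features of the same brightness had medians of −0.24 and −0.05, and 65.1% and 51.5% of them were below 0. Over all features 74.0% were above 0 on the deposited scale and 51.5% after normalization, against 23.2% and 33.9% of the 56. In deposited values, 12 of the 56 had every ascorbate array below every staurosporine array (21.4%, background 4.1%), against 25.8% of those 229. Another 4 had every ascorbate array above (7.14%, background 13%), against 7.86% of the 229. The direction differed between the scales for 6 of the 56, each negative on the deposited scale and positive after normalization. These 6, and the 43 below 0 on the deposited scale, include AT4G31530, whose capped values show no direction.

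The share of the summed deposited intensity of all features that fell to the 56 loci was 15.6%, 18.3% and 18.6% in the staurosporine pairs and 13.5%, 14% and 10.3% in the ascorbate pairs, and these ranges did not overlap. The 229 other bright features held 42.4%, 53.9% and 46.9%, and then 42.4%, 43.5% and 35.3%. On each staurosporine array 1 to 3 probes, AT4G31530 among them, were at the upper end of the scale, so these shares rest in part on capped values. The highest reading of any feature was 69.0 and 65.9 on ascorbate arrays 5 and 6, against 96.1 to 100 on the other 10 arrays. The part of these array differences in the lower readings of the 56 loci was not tested.

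The spread within a group was moderate for most loci. The coefficient of variation over 3 pair averages had a median of 19.6% with staurosporine against 24.9% with ascorbate. With staurosporine it was widest for AT1G01080 (65.4%), which read 6.66, 7.49 and 19.9, and with ascorbate for AT2G46220 (65.1%). AT5G66090 was wide in both groups, at 1.37, 0.851 and 2.82 with staurosporine against 2.66, 2.14 and 0.903 with ascorbate. Its change was positive in 2 of the 3 pairs and negative in the third.

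Among the 56 loci, arrays 5 and 6 departed from the other pairs more often than arrays 1 and 2 or 3 and 4 did. In 11 of the 56 loci (19.6%) the normalized change in arrays 5 and 6 lay more than 1 log2 unit outside both other pairs, against 1 locus each for arrays 1 and 2 and arrays 3 and 4. For arrays 5 and 6, 1 and 2, and 3 and 4 in turn, the shares among the 229 other bright features were 10.5%, 0.437% and 2.18%, and over all features 20.5%, 18.2% and 15.8%. The share of the 56 for arrays 5 and 6 was thus near that of all features and above that of the 229. For arrays 1 and 2 and for arrays 3 and 4, the share of the 56 (1.79% each) was below that of all features. In 7 of the 11 the change was lower in arrays 5 and 6 (AT1G16080, AT2G46220, AT1G01080, CCL, AT1G06730, AT2G46300 and AT5G66090), and in 4 it was higher (AT4G09620, AT3G52070, AT5G36470 and AT1G13370). AT1G06730 read 2.59, 2.83 and 4.32 with staurosporine against 1.91, 1.91 and 1.16 with ascorbate. AT2G46300 read 2.58, 1.65 and 3.22 and then 1.86, 1.55 and 0.829. The 7 loci were highest with staurosporine and lowest with ascorbate in arrays 5 and 6. AT1G13370 showed the reverse, at 2.12, 1.59 and 0.837 and then 1.93, 2.03 and 2.16.

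Within a pair, the 2 arrays read nearly alike, with a median absolute log2 difference of 0.0725 to 0.139 over the 56 loci. For arrays 3 and 4 a few loci departed from this in both groups and in the same direction. AT4G17070 read 3.40 on staurosporine array 3 and 37.4 on array 4, and 5.12 and 27.8 on the ascorbate arrays of those numbers. AT4G19900 read 22.0 and 8.67, and then 10.1 and 5.38. AT3G17550 read 2.34 and 4.52, and then 1.21 and 2.25, while AT5G36470 read 5.66 and 8.77, and then 3.10 and 5.46. These 4 were all of the loci in which arrays 3 and 4 differed by more than 1.5-fold in both groups. The difference between array 4 and array 3 correlated between the groups across the 56 loci with Pearson's r of 0.932, or 0.817 without AT4G17070. For arrays 1 and 2 r was 0.526, and for arrays 5 and 6 it was 0.130. Spearman correlations of these differences were closer, at 0.651 for arrays 3 and 4 and 0.503 for arrays 1 and 2, with 0.040 for arrays 5 and 6. These are descriptions across loci read on the same arrays.

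**Figure D4:**
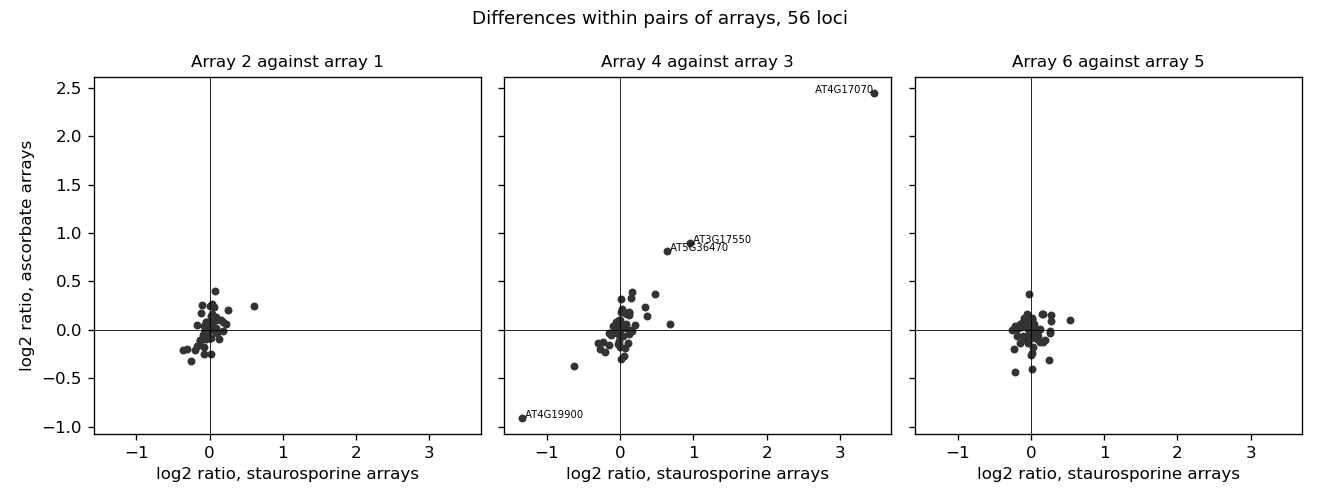
Log2 ratio of the second to the first array of each pair in the ascorbate group (vertical) against the staurosporine group (horizontal), 1 point per locus, 56 loci per panel. Loci over 1.5-fold in both groups are named. In the middle panel AT4G17070, AT3G17550, AT5G36470 and AT4G19900 lie far out along the diagonal, while the other panels show a compact cloud.

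Around the limit of the selection the signals differed little. The last 3 of the 60 were AT1G21500, AT4G25290 and AT3G03890, with means over 12 arrays of 1.52, 1.52 and 1.51. The first 3 loci outside were chr31 (AT1G05490, annotated as chromatin remodeling 31), AT4G07670 and AT4G21770, with 1.49, 1.46 and 1.43. AT1G21500 read 1.57 ± 0.251 with staurosporine against 1.47 ± 0.261 with ascorbate. AT3G03890 read 1.86 ± 0.661 and 1.16 ± 0.281, and AT4G13550, which reached the 60 brightest with ascorbate alone, read 1.47 ± 0.276 and 1.64 ± 0.0536.

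The 56 loci were spread over all 5 chromosomes, as their locus tags show. Chromosome 4 held 17 of them (30.4%), against 17.4% of the named loci, and the other chromosomes held 8 to 13. No test was made of this difference. In the annotated order of protein-coding genes, the closest pairs were AT2G46220 and AT2G46300, 9 genes apart, and AT3G26740 and AT3G26630, 11 genes apart. AT2G46220 and AT2G46300 both belonged to the 7 loci with a lower change in arrays 5 and 6.

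The 15 loci not yet named had means of 2.02 to 9.91 with staurosporine against 1.61 to 6.76 with ascorbate. They were AT1G51350, AT1G76450, AT1G07970, AT4G17650, AT3G09080, AT4G32060, AT4G27700, AT1G17160, AT1G73430, AT2G37510, AT4G39690, AT2G44760, AT3G59980, AT4G27250 and AT5G10920. Their log2 changes lay between −0.48 and 0.10, none passed (limma adjusted p from 0.357 to 0.974), and none moved more than 7 places. Of these, AT1G51350 and AT1G76450 had every ascorbate array below every staurosporine array in deposited values, and both overlapped after normalization.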

How the data were processed

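The authors deposited 1 intensity per probe and array, linear and between 0 and 100 by its values. The reference behind this scale, the scanner and how the authors corrected background or normalized were not given in the sources used here. The number of arrays limits the precision. Of 3439 probes, 692 were assigned to 1 gene by the platform annotation (690 matched by gene identifier, 2 not), 870 to several and 1877 to none. Probes of a locus were averaged, which gave 3438 features and 691 named loci.

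A reading of 0 was replaced by its array's smallest reading above 0. Values were taken to log2, quantile-normalized, averaged over consecutive arrays (3 averages per group) and fitted with limma 3.58.1 in R 4.3.3, with no covariate. Tests were 2-sided, with Benjamini-Hochberg adjustment over all features and a threshold of 0.05. The procedure was tested on simulated data. There the pairs of one group varied independently of those of the other, and features with a 0 on any array were left out. The members and lists were chosen with earlier results of these data known.

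Loci were named by rule: the 10 brightest, those past the test, the 6 largest changes in each direction among those called with 12 arrays, the 5 that gained and the 5 that lost most places, the 3 on each side of the limit, and those among the 60 brightest of 1 group alone. Both groups carry the array numbers 1 to 6. Deviations from the group means correlated between same-numbered arrays at 0.106 to 0.347, and between same-numbered pair averages at 0.125, 0.357 and 0.172. No such correlation between differently numbered arrays is given here, and the labels do not state what the numbers mark. Whether the numbers pair the samples is therefore not known. The main fit took no account of such a pairing, and fits with the numbers as a block were alternatives. Alternatives varied the samples, the pairing, the normalization, the zeros, the dim features, the prior and the arrays included. The 4 loci left out are not reported here.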

Additional observations from a re-analysis of the deposited data

How the results depend on the processing

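From pair averages limma called 0 of the 56 higher and 1 lower. With 12 arrays as samples 9 were higher and 14 lower, with consecutive arrays as a random block 7 and 11, with array numbers as a replicate block 6 and 12, and with 12 arrays on the deposited scale 6 and 19. The pair of numbers as a replicate block, the deposited scale with and without that block, median centring and cyclic loess each left 0 lower, and an intensity trend with a robust prior gave 2. With arrays or pairs left out, 0 to 2 were lower and 0 higher. Over all features the counts were 31 higher and 22 lower, against 479 and 485 with 12 arrays, 296 and 261 with the random block, 432 and 417 with array numbers as blocks, 1093 and 208 with 12 arrays on the deposited scale, 1 and 0 with the pair block and on the deposited scale, 0 and 0 with median centring, 2 and 0 with cyclic loess, 64 and 51 with the trend, and 1 to 50 and 0 to 44 with arrays left out.

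The median change of the 56 was −0.16, −0.40 on the deposited scale, −1.16 with median centring and −0.22 to −0.10 with arrays left out. Of the 56 loci, 44 were among the 60 brightest of both groups with all arrays, and 43 to 48 with a pair of numbers left out. Directions were followed over all alternatives only for the 29 loci named by rule, and the lists below cover no others unless stated. Of the 29, AT4G31530, capped on all staurosporine arrays, has no direction to compare. On the deposited scale AT4G17070 (−0.13) and AT4G23890 (−0.28) turned negative. Outside the 29, AT1G01080 (−0.043), AT4G17650 (−0.25) and AT4G27700 (−0.18) also turned negative on that scale. With median centring, which moves all values of an array alike, so did AT4G17070 (−0.89), AT4G23890 (−1.04), AT4G09620 (−0.17), AT4G24930 (−0.30), AT1G13990 (−0.20), AT2G04240 (−0.069), AT5G55570 (−0.21), AT1G13370 (−0.23), AT1G50390 (−0.27), AT5G65220 (−0.30), AT4G13550 (−0.59) and AT2G38550 (−0.046). Cyclic loess turned AT5G52810 (0.082) and AT1G21500 (0.012) positive. With arrays left out the direction turned for AT4G17070 (−0.30 to 0.73), AT1G16080 (−0.63 to 0.056), AT5G52810 (−0.11 to 0.075), AT4G19900 (−0.34 to 0.16) and AT1G21500 (−0.31 to 0.020). The cause was not tested.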
